A study of Mus musculus with 4 samples.

Results

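The comparison set lung tumors against non-tumor lung in mice with intact Nrf2 (Nrf2+/+), 16 weeks after urethane, an ethyl carbamate used to induce lung tumors. The rule took the array of the Nrf2+/+ tumor pool and that of the Nrf2+/+ non-tumor pool, 2 of the 4 arrays of the study, and kept every gene that was well above background, by the scanner software's flag, on at least 1 of them. That left 19913 of the 32300 genes and transcripts on the array, of which 17124 were well above background on both arrays. All groups were female ICR mice aged 6 months that had been injected intraperitoneally with urethane at 1 g/kg, the controls included, so no lung was unexposed. The other pair of arrays held tumors and non-tumor lung of Nrf2-/- mice, which lack the transcription factor gene Nfe2l2. Each array carried RNA pooled from 8 mice. Tumors between 1.0 and 1.5 mm across were cut from the lung surface and freed of surrounding tissue under a stereomicroscope.

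With 1 pool on each side there is no replicate spread and no p-value, so the differences below describe these pools. The software's own error of a difference was 0.20 on the log2 scale for genes whose levels lay above the 75th percentile on both arrays, and it covers spot measurement only. It was larger for dim genes, and it is given where it passes 0.30 for a gene with values on both arrays. Of the 2 slides, one carried only the Nrf2+/+ non-tumor array and the other carried the remaining 3 arrays, so slide and tissue cannot be told apart in this comparison. For that reason the differences of the same tumor pool from the Nrf2-/- non-tumor pool, which lay on the tumor's slide but differs in genotype, and of the Nrf2-/- pair, which shares no array with this comparison, stand beside the main values. Levels are given as relative signal, the processed signal divided by the 75th percentile of its array, so that 1 is that percentile. A difference is on the log2 scale, tumor minus non-tumor, and 1 is a 2-fold higher level.

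Urethane tumors of mouse lung are known to arise mostly from cells of the alveolar epithelium. The alveolar surface is lined by flat type 1 cells, through which gas diffuses, and by type 2 cells, which secrete surfactant and renew the lining. Normal lung around them holds airway epithelium, a dense capillary bed, fibroblasts, smooth muscle, the heart-like muscle sleeve of the pulmonary veins, pleura and resident leukocytes. In bulk RNA, fewer cells of a type and less RNA per cell cannot be told apart.

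The tumor pool had 1608 genes higher by 2-fold or more (8.08% of those measured) and 3052 lower by as much (15.3%), and the median of all differences was -0.03 with a robust spread of 0.71. Past 8-fold, 212 genes were higher (1.06%) and 127 lower (0.638%), but with spike-in scaling these counts were equal at 174. The balance at 2-fold depended on how the arrays were scaled. Higher genes were 34.5% of those past 2-fold, against 55.1% (2633 higher, 2146 lower) with median scaling, 23% (1174 and 3930) with spike-in scaling and 48.8% (1117 and 1172) with normexp background correction, which shifted the median over genes by 0.29, -0.22 and 0.12. Within gene lists, members counted as higher or lower are those past 2-fold, and the counts are to be read against the 8.08% and the 15.3%. For the Nrf2-/- pair the same shares were 5.43% and 9.12%, and for the Nrf2+/+ tumor against the Nrf2-/- non-tumor pool 7.14% and 13.2%. The plot of tumor against non-tumor level shows the longer tail on the tumor side.

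**Figure D1:**
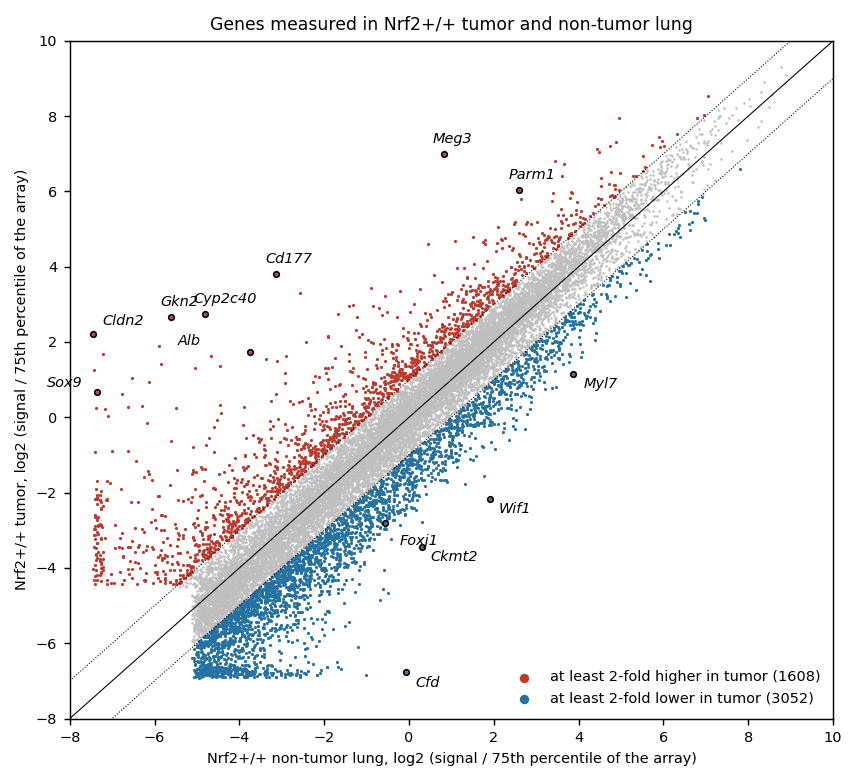
Level of each of 19913 genes in Nrf2+/+ tumor (vertical) against Nrf2+/+ non-tumor lung (horizontal), as log2 of the signal over the 75th percentile of the array, with 1 pool on each axis. Red points are the 1608 genes at least 2-fold higher and blue points the 3052 at least 2-fold lower in tumor; dotted lines mark 2-fold, and named genes such as Meg3 and Wif1 lie far from the solid line of equality.

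Markers of alveolar type 2 cells were higher in the tumor pool. Of 26 measured, 17 were past 2-fold upward and none downward, with a median of 1.15. The surfactant proteins were among the brightest genes on the array. Sftpb, which spreads surfactant lipid, read 52.9 in non-tumor lung and 151 in tumor (1.51), and Sftpd, a surfactant lectin, 59.1 and 173 (1.55). Sftpc, the protein restricted to type 2 cells, differed by 0.52. Lysosomal and lamellar body genes went along: the protease Ctsh (132 and 372, a difference of 1.50), Napsa, which processes surfactant proteins (39.1 and 84.4, 1.11), and Lamp3 (16.8 and 35.2, 1.07). Chil1, a chitinase-like protein, differed most, with 6.22 and 55.6 (3.16). Against the Nrf2-/- non-tumor pool the type 2 median was 0.75 with 9 of 26 past 2-fold, and in the Nrf2-/- pair it was 0.98 with 13 of 26.

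General epithelial genes were higher with the type 2 genes. Of 31 measured members of an epithelial identity list, 20 were past 2-fold upward and none downward (median 1.34). The adhesion protein gene Epcam read 0.340 in non-tumor lung and 0.964 in tumor (1.50), and the tight junction genes Cldn3 (1.95) and Cldn7 (12.2 and 36.0, 1.57) were higher. The membrane protease matriptase (St14, 1.81) and its inhibitor Spint1 (1.84) differed alike, as did Esrp2, which directs epithelial splicing (1.76), and the transcription factors Ehf (1.92) and Ovol1 (1.98). The simple-epithelium keratins Krt8 (1.34) and Krt18 (1.75) were higher, whereas Krt7 (0.22) and Krt19 (0.34) were not past 2-fold. Desmosome and junction genes such as Dsp (0.53), Jup (-0.56) and Ocln (-0.83) stayed within 2-fold.

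Markers of the other lung epithelia were lower or mixed. Among 19 type 1 markers none was 2-fold higher and 12 were at least 2-fold lower (median -1.17). Of the 4 that lay above 0 the farthest was the water channel Aqp5, with 30.5 and 49.5 (0.70). Hopx, a cofactor of the type 1 state, read 47.8 and 13.8 (-1.79), and Scnn1g, a subunit of the sodium channel that clears alveolar fluid, 11.5 and 3.49 (-1.72). Ager, the receptor long used to mark these cells, differed by -0.57. Of 25 ciliated cell genes 21 were at least 2-fold lower (median -2.09, or -1.99 with dim members at their bound), among them the radial spoke gene Rsph4a (0.285 and 0.0495, -2.53, software error 0.33), the tektin gene Tekt1 (6.41 and 1.57, -2.03) and the adenylate kinase Ak7 (5.11 and 1.18, -2.11). The ubiquitous tubulin Tubb4b (0.48) and the regulator Rfx2 (-0.87), neither of them restricted to ciliated cells, were not past 2-fold. Nor were another radial spoke gene, Rsph9 (3.16 and 2.64, -0.26), and the regulator Rfx3 (-0.45, not well above background in tumor). Of 17 club and secretory airway genes 4 were higher and 6 lower. The brightest members, Cbr2 (377 and 378, 0.00) and Scgb1a1 (301 and 209, -0.53), were within 2-fold, as were Scgb3a1 (-0.06) and Aldh1a7 (0.44). Cyp2f2, a P450 of club cells, read 110 and 42.7 (-1.37), and Gabrp, a chloride channel subunit, 3.37 and 0.579 (-2.54), while the goblet cell regulator Spdef read 0.161 and 0.674 (2.06) and the mucin Muc5ac 0.0409 and 0.274 (2.75). A second probe of Muc5ac, not well above background in tumor, differed by -0.92.

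**Figure D2:**
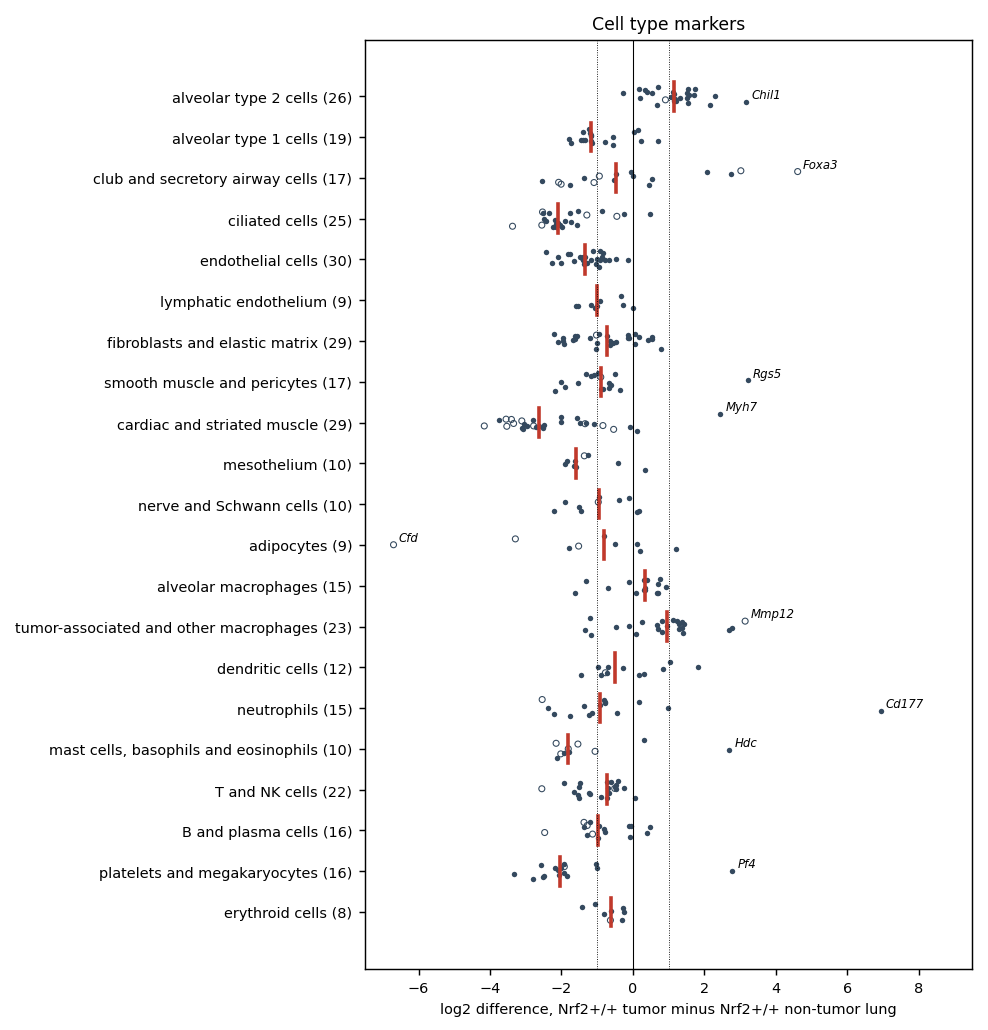
Log2 difference between Nrf2+/+ tumor and Nrf2+/+ non-tumor lung for the measured members of 21 cell type lists, with the number measured in parentheses. Each point is a gene (open where it was not well above background on one of the 2 arrays), red bars are medians and dotted lines mark 2-fold; single members such as Myh7, Pf4, Rgs5 and Cd177 lie far above their lists.

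Promoter sequence was looked at for the ciliated list, since regulatory factor X proteins bind a split site in cilia genes. The half-site GTTGCC, searched on both strands from 250 bases before to 50 after the start, stood in 11 of 20 ciliated genes with a promoter entry (55.0%), against 12.7% of all 27025 promoters and 12.8% of the 11176 promoters of measured genes. The 90 bases before the start of 2 such genes are shown with the half-site in capitals, read from the opposite strand, from RefSeq on build GRCm38.p6. Mns1, a protein of the flagellar axoneme, lies on the plus strand (chr9:72438439-72438528) and differed by -2.09. Ccdc113, also on the plus strand (chr8:95534010-95534099), differed by -2.18.
Mns1: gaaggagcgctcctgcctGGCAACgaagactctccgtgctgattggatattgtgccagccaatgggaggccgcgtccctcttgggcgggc
Ccdc113: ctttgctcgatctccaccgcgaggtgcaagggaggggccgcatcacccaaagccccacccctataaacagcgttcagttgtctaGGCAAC

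Transcription factors of lung and foregut lineage differed in both directions: of 37 measured, 15 were at least 2-fold higher and 9 lower (median 0.71). Sox9, which marks the tips of the growing lung, read 1.59 in tumor and lay near background in non-tumor lung, at least 55.4-fold higher; a second probe, also dim in non-tumor lung, differed by 6.53 and the third was not well above background on either array. Etv4, an Ets factor induced by fibroblast growth factor and Ras signalling, was at least 41.6-fold higher. Id2, another tip gene, read 6.07 and 29.8 (2.29), Elf5 3.56 and 17.9 (2.33) and Cebpa, which drives type 2 maturation, 4.59 and 26.1 (2.51). Foxa3, a factor of gut and liver, was at least 12.2-fold higher. Nkx2-1, the master factor of lung epithelium, read 2.69 and 6.04 (1.17).

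Mycn, a Myc family gene active in lung progenitors, read 0.268 and 2.02 in the Nrf2+/+ pools (2.92) and 0.231 and 0.236 in the Nrf2-/- pools (0.03). Only the Nrf2+/+ tumor pool was high by this probe; the other probe gave 1.44 and 0.34. Among the lower factors, Sox2, the airway counterpart of Sox9, was at least 3.45-fold lower. The T-box genes of lung mesenchyme were lower together, Tbx2 by -1.73, Tbx3 by -1.84, Tbx4 by -1.70 (software error 0.35) and Tbx5 by -1.85, and Foxf1, a mesenchymal and endothelial factor, read 0.948 and 0.187 (-2.34). The 5 measured neighbours Hoxb6, Hoxb5, Hoxb3, Hoxb4 and Hoxb2, which pattern lung mesenchyme, were each at least 2-fold lower, between -1.83 and -1.37.

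Genes of stomach, gut and liver were among the highest. Of 27 measured liver and plasma protein genes, 15 were at least 2-fold higher and 1 was lower (median 1.12). Transferrin (Trf), the iron carrier of plasma, read 12.7 in non-tumor lung and 106 in tumor (3.06), the apolipoprotein Apoc1 30.8 and 248 (3.01), and the retinol carrier Rbp4 6.92 and 36.5 (2.40). Ahsg, a fetuin, read 0.133 and 3.09 (4.54) and its paralog Fetub 0.169 and 9.78 (5.85). The list was not higher throughout: fibrinogen Fga (0.02, software error 0.34), Hpx (-0.35) and Serpinc1 (-0.06, software error 0.39) stayed near 0 and vitronectin (Vtn) was lower (-1.74). Against the Nrf2-/- non-tumor pool the list's median was 0.45, with 11 higher and 5 lower. Of 23 stomach, gut and pancreas genes 7 were higher and 3 lower (median 0.21, below 0 with spike-in scaling). Cltrn, a partner of amino acid transporters, was at least 128-fold higher. Cela1, a pancreatic elastase, read 0.0411 and 0.840 (4.35), Mogat2, which rebuilds fat in the gut, 0.0457 and 1.26 (4.79), and the microvillus protein gene Vil1 0.137 and 0.791 (2.54). Gkn2 was at least 220-fold and its neighbour in function Gkn1 at least 3.43-fold higher, while Gkn3 stood at -0.75.

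Several of these genes lie next to each other. From Alb to Parm1 the RefSeq order holds 17 genes that are on the array, and of 15 measured, 12 were at least 2-fold higher and 1 lower (median 2.85). The stretch was chosen after these values were seen. It begins with albumin (Alb, 0.0746 and 3.31, a difference of 5.47) and alpha-fetoprotein (Afp, 0.700 and 6.98, 3.32). It goes on through chemokines that attract neutrophils, Cxcl5 (2.85), Cxcl3 (at least 43.1-fold) and Cxcl1 (at least 9.26-fold), with the lung chemokine Cxcl15 at 27.3 and 91.3 (1.74). It ends with the EGF family ligands Ereg (at least 2.59-fold), Areg (2.89) and Btc (1.01, software error 0.31), and with Parm1, a membrane glycoprotein, at 6.05 and 66.2 (3.45). Epgn (0.17) and Mthfd2l (0.23, software error 0.41) lay near 0, and Afm and Cxcl2 were not well above background on either array. Pf4, known as a platelet chemokine, lies in this stretch and read 12.3 and 84.4 (2.78; 2.51 in the Nrf2-/- pair), whereas its neighbour Ppbp, another platelet chemokine, read 13.6 and 3.18 (-2.09; -1.83 in the Nrf2-/- pair).

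**Figure D3:**
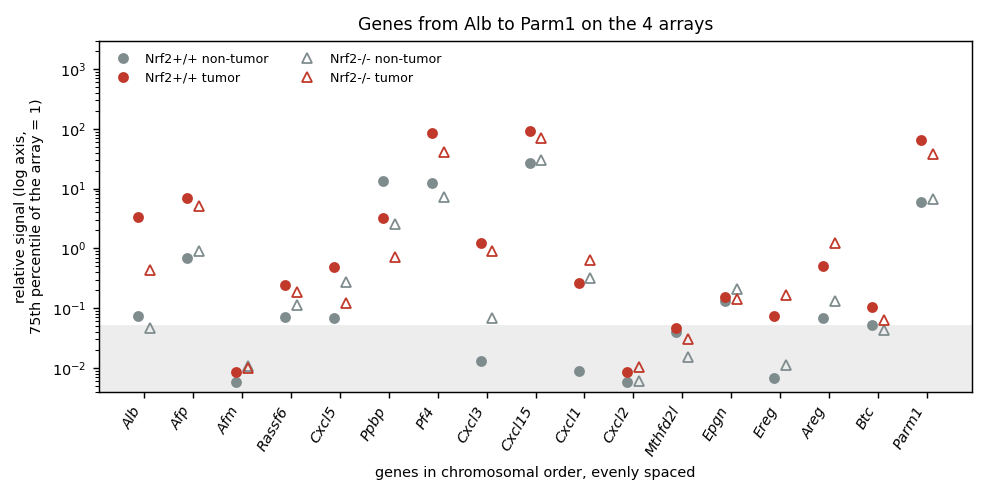
Relative signal on a log axis for the 17 genes from Alb to Parm1 in chromosomal order, evenly spaced, on the 4 arrays (circles Nrf2+/+, triangles Nrf2-/-, grey non-tumor, red tumor; 1 pool each). The shaded band lies below the dimmest well-above-background level on the Nrf2-/- tumor array (0.0503), and 12 of 15 measured genes were at least 2-fold higher in Nrf2+/+ tumor, with Ppbp the exception that was lower.

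The promoters of Alb and Afp hold the letters GTTAAT, the half-site of the hepatocyte nuclear factor 1 proteins. The half-site stood in 8 of 23 liver and plasma protein genes with a promoter entry (34.8%), against 7.20% of all promoters and 4.58% of those of measured genes. Of the 8, Alb, Afp, Itih1 (2.51) and Cyp2c40 (7.56) were past 2-fold upward. Gc (0.97), Fga (0.02) and Cp (-0.70) were within 2-fold, and Vtn (-1.74) was lower in tumor. Fetub (5.85) and Ahsg (4.54) did not hold it. The sequences are shown because these neighbours are liver genes that differed by 5.47 and 3.32, with the half-site in capitals, both on the plus strand of GRCm38.p6 (chr5:90460780-90460869 and chr5:90490564-90490653) from RefSeq.
Alb: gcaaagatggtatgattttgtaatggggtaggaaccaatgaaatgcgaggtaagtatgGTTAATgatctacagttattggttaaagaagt
Afp: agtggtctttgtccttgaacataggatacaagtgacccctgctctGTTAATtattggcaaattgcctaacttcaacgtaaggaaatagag

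Runs of neighbours were also counted along the whole order. Of 14035 measured genes placed in the RefSeq order, 1184 were past 2-fold upward and 2039 downward. Among them, 28 runs of at least 3 neighbours were past 2-fold upward throughout and 73 downward. The longest had 5 and 7 genes. With so many genes past 2-fold, some runs would form in a random order too, and how many was not tested. The counts therefore do not show that neighbours differed together. The longest higher runs were Wfdc15b, Slpi, Matn4, Rbpjl and Sdc4, which include the antiprotease gene Slpi (22.3 and 132, 2.57), and Kif15, Tmem42, Tgm4, Zdhhc3 and Exosc7. Svopl (2.55), the proton pump subunit Atp6v0a4 (0.121 and 0.629, 2.38) and Tmem213 (0.315 and 6.68, 4.41) were adjacent, and each was also at least 2-fold higher in the Nrf2-/- pair (2.97, 3.56 and 5.34). In the imprinted Dlk1 domain Dlk1, Meg3 and Rian were joined by Dio3os, which read 0.0497 and 0.191 (1.94, against 0.36 in the Nrf2-/- pair). Meg3, a maternally expressed noncoding RNA, has 5 probes; 2 were well above background on both arrays and differed by 6.18 and 6.33, and the other 3 were dim in non-tumor lung. Of 26 measured imprinted genes 7 were higher and 7 lower. Phlda2, a growth-limiting gene of placenta, was higher (0.827 and 6.35, 2.94), whereas Cdkn1c (-1.69), Mest (-1.69), Igf2 (-1.27) and Ndn (-1.30) were lower. On the X chromosome Arxes1 (2.55), Bex2 (2.37), Bex4 (2.12) and Bex1 (3.02) were higher here and stood at 0.18, 0.22, -0.11 and 0.28 in the Nrf2-/- pair.

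Proliferation genes were higher in the tumor pool. Of 36 measured mitosis genes 24 were past 2-fold upward and none downward (median 1.14), against 2 of 34 in the Nrf2-/- pair (median 0.35). Kif23, a motor of the midbody, read 0.0694 and 0.291 (2.07) and Cdk1, the kinase that starts mitosis, 0.180 and 0.599 (1.74). The anaphase activator Cdc20 read 3.52 and 9.86 (1.49) and Birc5, of the chromosomal passenger complex, 1.08 and 2.95 (1.44). In the Nrf2-/- pair Cdk1 differed by 0.60, Cdc20 by 0.44 and Birc5 by 0.26, and Kif23 by 1.54. Genes of DNA replication were less far from 0: of 34, 7 were higher and none lower (median 0.53). The thymidine synthesis genes Tk1 (1.25) and Tyms (1.10) and the uracil glycosylase Ung (0.292 and 0.978, 1.75) were past 2-fold, while the clamp Pcna stood at -0.16 and the helicase subunit Mcm3 at 0.01. Among 29 DNA repair genes 4 were higher, among them Ung, Exo1 (1.51) and Chek2 (1.06), and none was lower. The telomerase gene Tert stood at 1.07 and Myc at 1.17, with 3 of 23 Myc network and nucleolar genes past 2-fold.

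Cyclin, Cdk inhibitor and p53 response genes were split. Of 32 measured, 3 were higher and 5 lower (median -0.03, above 0 with median scaling). Cdkn2a, which encodes the inhibitors p16Ink4a and p19Arf, was at least 12.9-fold higher in tumor, with 0.376 there and no level well above background on the other array. In the Nrf2-/- pools it read 0.273 and 0.283 (0.05). The growth brake Cdkn1c read 2.81 and 0.870 (-1.69), and the p53 targets Cdkn1a (0.12), Mdm2 (0.03) and Bax (0.63) stayed within 2-fold. The p53 target Zmat3 stood at 1.28 and the death gene Pmaip1 at -1.48.

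Late cell cycle genes are known for a short element called the cell cycle homology region, TTTGAA or TTCGAA. It stood in 22 of 31 mitosis genes with a promoter entry (71.0%), against 19.4% of all promoters and 14.3% of those of measured genes. In S-phase genes the E2F letters TTTCCCGC or TTTGGCGC stood in 10 of 28 (35.7%), against 1.63% and 2.78%. Over the 931 promoters of genes at least 2-fold higher the 2 motifs stood in 16.4% and 3.22%. The 90 bases before the start of Cdk1 (chr10:69352913-69353002) and Cdc20 (chr4:118437344-118437433), both on the minus strand, show the first element in capitals, and for Cdc6, the licensing factor that differed by 1.09, a stretch upstream on the plus strand (chr11:98907968-98908057) shows the E2F letters as they read on the opposite strand. All are from RefSeq on GRCm38.p6.
Cdk1: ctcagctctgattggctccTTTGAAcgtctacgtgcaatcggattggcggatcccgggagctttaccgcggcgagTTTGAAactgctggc
Cdc20: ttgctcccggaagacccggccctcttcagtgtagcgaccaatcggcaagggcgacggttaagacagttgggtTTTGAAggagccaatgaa
Cdc6: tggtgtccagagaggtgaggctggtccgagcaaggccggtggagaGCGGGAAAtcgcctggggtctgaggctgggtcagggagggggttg

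Readouts of Ras and MAPK signalling were higher in part. Of 31 measured, 11 were at least 2-fold higher and 2 lower (median 0.33). Egr1, an early response factor, read 0.435 and 2.12 (2.29), the ERK phosphatase Dusp4 0.134 and 0.676 (2.33) and Dusp6 differed by 1.10. The feedback inhibitor Spry2 stood at 1.40 by one probe and 0.39 by another, and Spry1 at 1.03. Dusp1 (-1.38) and Ets1 (-1.15) were lower. Of 40 growth factor ligands and receptors 9 were higher and 17 lower (median -0.43, or -0.32 with dim members at their bound). Fgfr2, the receptor of alveolar epithelium (1.73 and 5.24, 1.60), and Met, the hepatocyte growth factor receptor (4.31 and 11.8, 1.45), were higher. Their mesenchymal ligands Fgf7 (0.447 and 0.104, -2.10), Fgf10 (0.638 and 0.209, -1.61) and Hgf (at least 2.28-fold) were lower. Egfr was lower (4.56 and 1.65, -1.46, and -1.56 and -1.66 by other probes), while its ligands Areg, Hbegf (1.30) and Egf (1.26, software error 0.31) were higher.

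In the Wnt list 4 of 36 were higher and 12 lower (median -0.58). The secreted inhibitors split: Wif1 read 3.75 and 0.223 (-4.07) and Notum was at least 2.89-fold lower, while Dkk2 read 0.0340 and 0.385 (3.50, software error 0.32). The ligand Wnt7b of lung epithelium was higher (1.73), and Wnt2 of mesenchyme (-1.94) and the effector Lef1 (-1.21) were lower. Sp5, a target of Wnt signalling, was higher (2.40). Of 21 Notch pathway genes 7 were lower, with the endothelial ligand Dll4 at -1.31 and the target Hey1 at -1.54, and Dlk1 alone was higher (median -0.92). In the Hedgehog and Hippo list 9 of 22 were lower and 1 higher. The ligand Shh stood at 1.52 (0.0519 and 0.149), while the brighter ligand Dhh was lower (3.03 and 0.918, -1.72). The pathway genes Hhip (0.631 and 0.219, -1.53) and Gli3 (-1.20) were also lower. Gli1 stood at -1.63 without being well above background in tumor, and at 0.05 with normexp background correction.

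The TGF-beta and BMP list had 8 higher and 12 lower of 41 (median -0.38, or -0.33 with dim members at their bound). Inhbb, an activin subunit, read 2.57 and 13.3 (2.37), Bmp1, a procollagen protease, 4.12 and 21.2 (2.37) and Bmp4 5.58 and 14.0 (1.33). The endothelial receptors and targets were lower, Acvrl1 (-1.53), Bmpr2 (-1.60) and Smad6 (16.2 and 3.86, -2.07). Grem1, a BMP antagonist, was at least 4.53-fold higher. Smad9, a BMP signal carrier, read 0.0330 and 0.234 (2.82, software error 0.34).

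**Figure D4:**
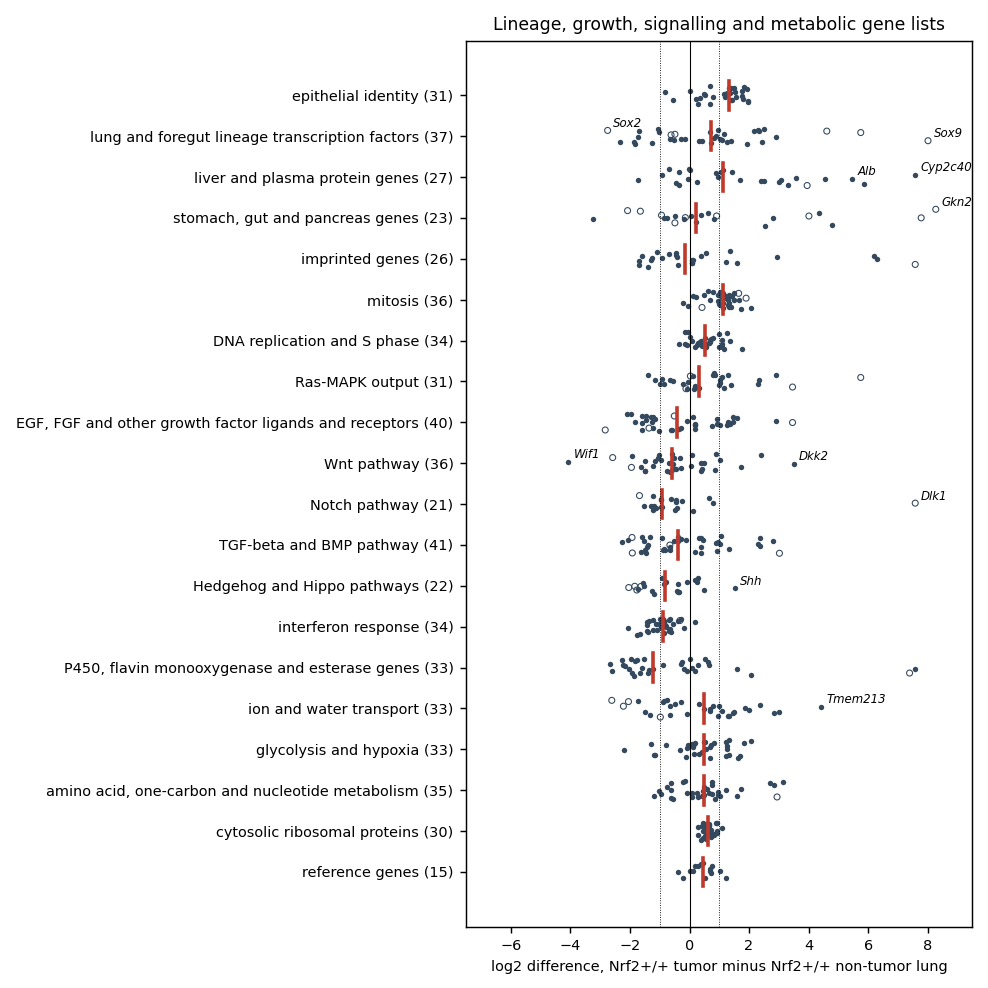
Log2 difference between Nrf2+/+ tumor and Nrf2+/+ non-tumor lung for measured members of 20 lists of lineage, growth, signalling and metabolism, with the number measured in parentheses. Points are genes (open where not well above background on one of the 2 arrays), red bars medians and dotted lines 2-fold; all 30 ribosomal protein genes lie above 0 (not all do with quantile normalization), while the Notch list lies below it except for 4 genes, Dlk1 the farthest.

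Vessel markers were lower. None of 30 endothelial markers was above 0 (with median scaling the highest reached 0.15), and 21 were at least 2-fold lower (median -1.33). Tmem100, a BMP target of lung endothelium, read 16.6 and 3.06 (-2.44) and the tight junction gene Cldn5 98.3 and 31.3 (-1.65). Nos3 (-0.15), Esam (-0.46) and Aplnr (-0.66) were nearest to 0. Of 29 fibroblast and elastic matrix genes 13 were lower and none higher. The lower ones included Tcf21 (10.8 and 2.36, -2.20), Col13a1 (-1.96), Npnt (-1.96) and Pi16 (-2.09), while the fibrillar collagens Col1a1 (0.52), Col3a1 (-0.13) and elastin (Eln, 0.52) were within 2-fold. In the basement membrane list 2 of 31 genes were higher, among them Lamb3 (1.44), a chain of the epithelial laminin, and 7 were lower, among them Col4a3 (-1.58) and Itga8 (-1.48). Col15a1, a basement membrane collagen, read 0.114 and 1.55 (3.76); its other probe, dim on both arrays, gave 0.31.

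Smooth muscle genes had a median of -0.90, with 7 of 17 lower. Cnn1, a contractile protein, read 9.38 and 2.35 (-2.00) and Myh11 3.41 and 0.906 (-1.91). Rgs5, a regulator of G protein signalling used to mark pericytes, was the exception, with 0.208 and 1.92 (3.21; 2.74 in the Nrf2-/- pair). Of 29 striated muscle genes 24 were lower (median -2.62, or -2.12 with dim members at their bound), such as the creatine kinase Ckmt2 (1.23 and 0.0923, -3.74), the atrial myosin light chain Myl7 (14.5 and 2.23, -2.70) and troponin I (Tnni3, 5.16 and 0.657, -2.97). Myh7, the slow cardiac myosin heavy chain, was the 1 higher member, with 26.8 and 146 (2.45; 1.66 in the Nrf2-/- pair), while its close paralog Myh6 stood at 0.11. Probes of such similar genes may share signal. Mesothelial markers were lower in 8 of 10 (median -1.60), with Msln at 10.6 and 3.43 (-1.62). Among adipocyte genes Cfd was at least 22.8-fold lower, against -0.68 in the Nrf2-/- pair, and Fabp4, also present in macrophages and endothelium, was the 1 higher member.

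Leukocyte lists differed by lineage. Of 23 macrophage genes outside the alveolar set 11 were higher and 3 lower (median 0.94). Ms4a7 read 0.487 and 3.34 (2.78), arginase 1 (Arg1) 0.0792 and 0.513 (2.70) and the elastase Mmp12 was at least 8.83-fold higher. The neighbouring complement genes C1qa (1.29), C1qb (1.29) and C1qc (1.38) were higher, and Cd163 (-1.35, software error 0.34) and Folr2 (-1.21), of tissue-resident macrophages, were lower. Against the Nrf2-/- non-tumor pool 2 of these genes were higher and 3 lower (median 0.19). Alveolar macrophage genes stood at a median of 0.33, with the scavenger receptor Marco lower (19.3 and 6.35, -1.61). Of 22 T and NK cell genes 9 were lower and none higher (median -0.73). The lower ones were mostly genes of NK and cytotoxic cells, such as Gzmb (-1.94) and Prf1 (-1.65), with the T cell factor Tcf7 (-1.49). The T cell receptor complex genes Cd3d (-0.48) and Cd3g (-0.24) and the coreceptor gene Cd8a (-0.46) stayed within 2-fold. Of 16 B and plasma cell genes 7 were lower and none higher (median -0.97, or -0.80 with dim members at their bound). Neutrophil genes were lower in 7 of 15, including Mpo (-2.37) and Ngp (-2.22) of granule content. Cd177, a neutrophil surface protein, stood apart with 0.114 and 13.9 (6.93). Hdc, the histamine-forming enzyme, read 21.5 and 140 (2.70), while the mast cell protease Cma1 stood at -1.80.

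Platelet genes differed between the non-tumor pools. Of 16 platelet and megakaryocyte genes 14 were at least 2-fold lower (median -2.04), such as Rgs18 (3.38 and 0.338, -3.32), the integrin Itga2b (0.743 and 0.106, -2.81) and the glycoprotein Gp9 (4.70 and 0.818, -2.52). Against the Nrf2-/- non-tumor pool none was 2-fold lower (median -0.41), with these 3 at -0.64, -0.94 and -0.89. In the Nrf2-/- pair, however, 12 of 15 were at least 2-fold lower (median -1.57), with the same 3 at -1.54, -2.14 and -1.79. Some single genes were alike in this. Wif1 differed by 0.23 from the Nrf2-/- non-tumor pool, the tryptophan-degrading enzyme gene Ido1 by -2.59 and 0.31 from the 2 pools, the gut phosphatase Alpi by -3.25 (software error 0.35) and -0.38, and the collagen Col6a5 by -2.79 and -0.34. Pawr, Gpr137c and Pkd2l1, at least 7.36-fold, 6.29-fold and 6.98-fold lower here, were not well above background on the other 3 arrays. These genes were high on the Nrf2+/+ non-tumor array and lower on the other 3. That array held 876 genes well above background on it alone, against 158 on the Nrf2+/+ tumor, 451 on the Nrf2-/- non-tumor and 144 on the Nrf2-/- tumor array.

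Interferon response genes were lower, 13 of 34 by at least 2-fold and none higher (median -0.87), with 33 of 34 below 0 and 1 at 0.17. The guanylate-binding proteins Gbp5 (5.98 and 1.76, -1.77), Gbp6 (4.87 and 1.53, -1.67) and Gbp2 (25.5 and 9.41, -1.44) and the GTPase Igtp (58.0 and 22.2, -1.39), all known from responses to interferon gamma, were lower. So were Ifit2 (0.212 and 0.0501, -2.08, software error 0.35) and Usp18 (2.87 and 1.06, -1.44), known from responses to type I interferon. In the Nrf2-/- pair Gbp5 stood at 0.25, Gbp6 at 0.24 and Igtp at 0.23, with a list median of -0.09. Against the Nrf2-/- non-tumor pool the median was -0.48 with 4 lower and 1 higher. There Gbp5 stood at 0.13, Gbp6 at 0.07, Igtp at -0.13 and Gbp2 at -0.47, all within 2-fold, while Ifit2 stood at -1.05. The interferon-stimulated response element stood in 13 of 26 members with a promoter entry (50%), against 0.840% of all promoters and 0.868% of those of measured genes. It is shown in capitals, read from the opposite strand, for Gbp5 (chr3:142496734-142496823) and Ifit1 (chr19:34640799-34640888, -1.04), both on the plus strand of GRCm38.p6, from RefSeq.
Gbp5: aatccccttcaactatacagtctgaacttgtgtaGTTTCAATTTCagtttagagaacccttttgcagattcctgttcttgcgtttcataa
Ifit1: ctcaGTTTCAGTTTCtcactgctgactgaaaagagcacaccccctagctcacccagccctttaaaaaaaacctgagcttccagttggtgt

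In all, 19 motifs were searched against 11 lists on both strands, and the 5 described were picked after their shares were seen. The other 14 were the CCAAT box CCAAT, which stood in 22 of 31 mitosis genes (37.9% of all promoters), the hypoxia core ACGTG, in 17 of 30 glycolysis and hypoxia genes (19.7% of all), and CACGTG, which contains it. GTTGCCA and the full X-box contain the half-site, and the full HNF1 site contains its own. The rest were the ETS site CCGGAAGT, the AP-1 site TGANTCA, the interferon gamma site TTCNNNGAA, the forkhead site TGTTTAC or TGTTTGC, the Nkx2-1 site CACTTGA or CTCAAGTG, the antioxidant element, the CArG box and the MEF2 site. A match says only that the letters occur in the window.

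Cytokine and surface genes of immunity were mixed. Of 36 chemokine genes 11 were higher and 5 lower. Ccl8 read 0.779 and 2.32 (1.57) and Ccl17, which attracts T cells, 0.498 and 1.76 (1.82), but Ccl17 was lower than in the Nrf2-/- non-tumor pool by -1.11. Cxcl5 differed by 0.82 and Cxcl1 by -0.26 from that pool. Il34, a ligand of the macrophage receptor Csf1r, read 2.96 and 10.4 (1.81), Tnfsf9, a costimulatory ligand, was at least 11.1-fold higher, and the other Csf1r ligand Csf1 was lower (3.73 and 1.52, -1.30). Il4i1, an amino acid oxidase of myeloid cells, differed by 4.32. The checkpoint ligand Cd274 was lower (1.40 and 0.557, -1.33), while Cd276 (2.05), Nectin2 (3.74 and 10.3, 1.46) and Pvr (6.80 and 18.8, 1.47) were higher. MHC class II genes Cd74 (1.18), H2-Aa (1.02) and H2-DMb1 (1.39) were higher, and the peptide transporter subunits of class I, Tap1 (-1.08) and Tap2 (-1.04), were lower. In the complement list 9 of 25 were higher and 4 lower. Clu, a chaperone-like plasma protein, read 10.8 and 113 (3.38) and Cfi, the protease that inactivates C3b, 0.330 and 3.74 (3.50), while C3 stood at -0.13.

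Detoxification genes were mostly lower. Of 33 P450, flavin monooxygenase and esterase genes 17 were lower and 4 higher (median -1.22). The flavin monooxygenases Fmo1 (-1.82) and Fmo2 (-1.58) were lower. The paraoxonase Pon1 read 11.1 and 1.73 (-2.68). The lung P450s Cyp4b1 (59.2 and 18.7, -1.66), Cyp2b10 (9.13 and 2.33, -1.97) and Cyp2s1 (34.5 and 9.09, -1.92) were lower, as was Cyp2e1, which oxidises urethane (0.167 and 0.0635, -1.39). The arachidonic acid P450s Cyp2c40 (0.0355 and 6.68, 7.56, software error 0.32) and Cyp2c29 (at least 53.7-fold) were higher, and since mouse Cyp2c genes are near copies, their probes may share signal. Retinoid-forming Aldh1a1 was lower (125 and 38.1, -1.72) and the aldo-keto reductase Akr1b8 higher (13.9 and 56.9, 2.04). Of 43 Nrf2 target and antioxidant genes 7 were higher and 5 lower (median 0.24). Osgin1 (4.21 and 12.2, 1.53), heme oxygenase Hmox1 (4.63 and 12.3, 1.41) and the cystine carrier gene Slc7a11 (at least 3.21-fold) were higher, and all 3 were also at least 2-fold higher in the Nrf2-/- pair. Gpx3 (-1.14) and Sod3 (-1.07), antioxidant enzymes secreted from cells, were lower.

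Metabolic genes differed by branch. Of 33 glycolysis and hypoxia genes 10 were higher and 4 lower (median 0.49). Lactate dehydrogenase Ldha read 23.1 and 82.5 (1.84) and hexokinase Hk2 1.71 and 5.48 (1.68), while Pdk4, which holds pyruvate back from mitochondria, read 1.61 and 0.353 (-2.19) and the hypoxia marker Car9 stood at -0.12. In one-carbon and amino acid metabolism 8 of 35 were higher and 2 lower (median 0.48). Arg2, mitochondrial arginase, read 0.284 and 2.50 (3.14), the serine enzymes Shmt1 0.221 and 1.59 (2.85) and Psat1 0.832 and 2.76 (1.73), and the amino acid carrier Slc7a5 0.137 and 0.417 (1.60). Elovl7, an elongase of fatty acids, differed by 2.79, but the sterol gene Sqle (-0.29) was within 2-fold. Subunits of oxidative phosphorylation had a median of 0.43 with none of 37 past 2-fold upward. The 2 that were lower, Cox8b (2.18 and 0.397, -2.46) and Cox7a1 (-1.31), are the muscle isoforms. All 30 cytosolic ribosomal protein genes were above 0, between 0.27 and 1.08 (median 0.63; the lowest stood at -0.14 with quantile normalization), and proteasome genes had a median of 0.38 with none of 29 past 2-fold. The reference genes, used elsewhere for their steady expression, had a median of 0.46.

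Ion transport genes formed another contrast. Of 33 measured 11 were higher and 6 lower (median 0.50). Slc26a9, an epithelial chloride channel, read 2.20 and 15.6 (2.83), the chloride-loading cotransporter Slc12a2 5.35 and 21.6 (2.01), the calcium channel Trpv6 0.512 and 4.14 (3.01) and the proton pump subunit Atp6v1c2 11.4 and 41.7 (1.87). The absorptive sodium channel subunits Scnn1b (2.41 and 0.849, -1.51) and Scnn1g were lower and Scnn1a stood at -0.87. Cftr, the other main chloride channel of airways, was at least 4.24-fold lower and the water channel Aqp4 at least 4.03-fold lower. In iron handling the siderophore-binding Lcn2 (1.37 and 24.1, 4.13) and the metallothioneins Mt1 (1.70) and Mt2 (9.95 and 32.6, 1.71) were higher. From the Nrf2-/- non-tumor pool Lcn2 differed by 2.01, Mt1 by 0.94 and Mt2 by 0.35. In the Nrf2-/- pair the same genes stood at 2.61, 0.61 and -0.14. Clock genes were lower in 7 of 19, with Per1 at 5.11 and 1.81 (-1.49) and Hlf at -1.64, and Bhlhe40 was higher (1.28).

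Among the remaining genes with the largest differences, several carried membrane or signalling functions. The adenosine receptor Adora1 read 0.401 and 7.97 (4.31; 3.48 and 2.24 by its other probes), the sialyltransferase St8sia6 0.186 and 4.00 (4.42), the kinase Stk39, which activates Slc12a2, 0.266 and 4.47 (4.07) and the adhesion molecule Chl1 0.0363 and 0.596 (4.04, software error 0.31). Acnat1, of bile and fatty acid conjugation, read 0.0463 and 1.08 (4.54). Inava, a gut barrier gene, read 0.0378 and 0.683 (4.18, software error 0.32), but its other probe differed by 1.00. The epithelial serpin Serpinb5 was at least 93.8-fold, the iron-binding Meltf at least 112-fold and the carcinoembryonic antigen relative Ceacam10 at least 82.2-fold higher. For some the Nrf2-/- pair was near 0: Xlr3c read 0.115 and 2.84 (4.62) against 0.627 and 0.773 there (0.30), and Ppp3r2, a calcineurin subunit, 0.0663 and 0.869 (3.71) against 0.0397 and 0.0484 (0.29). On the lower side Slc47a1, an exporter of organic cations, read 0.482 and 0.0691 (-2.80), the endothelial gene Fam162b 4.04 and 0.557 (-2.86) and Sult1d1, a sulfotransferase, was at least 9.94-fold lower. Tmem14c was at least 17.1-fold lower, against 0.61 in the Nrf2-/- pair.

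Genes at the far ends, most of them dim on 1 of the 2 Nrf2+/+ arrays, were followed into the Nrf2-/- pair of pools. Of the 212 genes at least 8-fold higher, 123 were at least 2-fold higher there (58.0% of all), and 79 were not well above background on either Nrf2-/- array, which leaves out genes seen in the Nrf2+/+ tumor pool alone. Of the 127 at least 8-fold lower, 48 were at least 2-fold lower there (37.8% of all) and 72 were not well above background on either array. Over all 1608 genes at least 2-fold higher the share was 41.0%, and over all 3052 lower ones 41.1%. For genes with more than 1 probe measured on both arrays, 4313 in number, the median range between probes was 0.25, and 3.45% had a range over 1. The plot of list medians sets the 3 differences side by side; muscle, ciliated, type 1, type 2 and endothelial lists kept their direction in all of them.

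**Figure D5:**
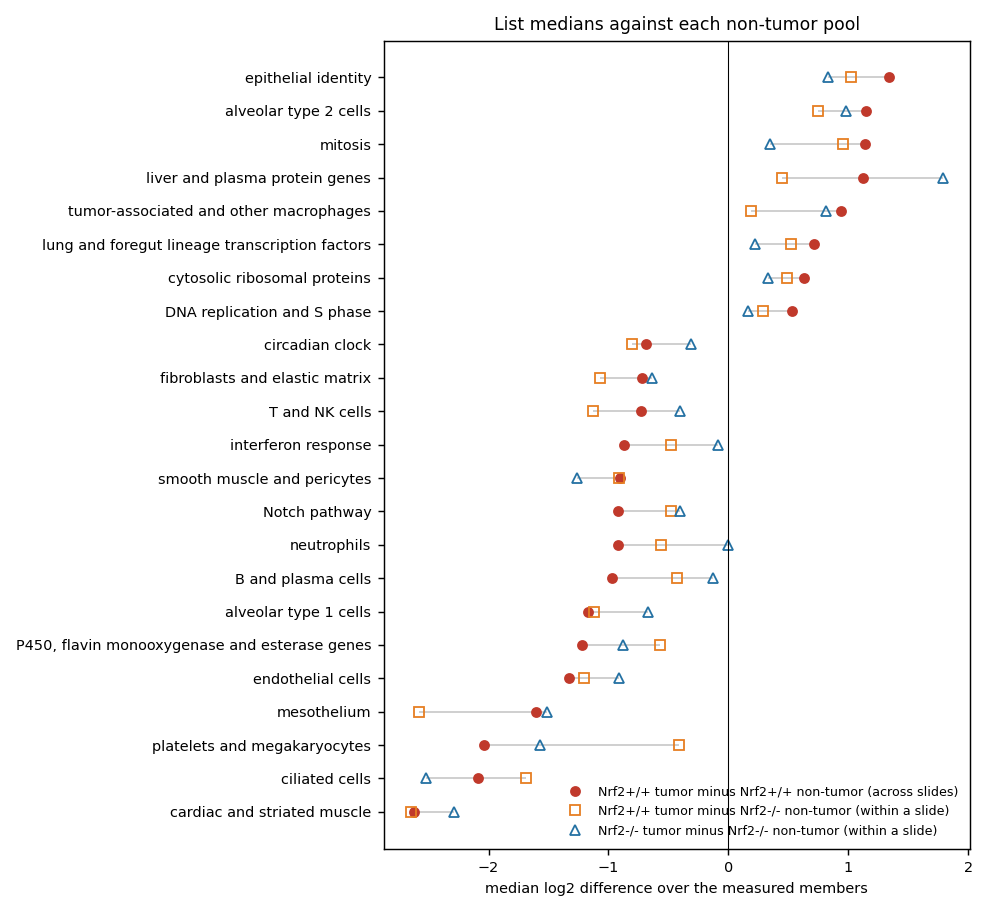
Median log2 difference over the measured members of 23 gene lists for Nrf2+/+ tumor minus Nrf2+/+ non-tumor (filled circles, across slides), Nrf2+/+ tumor minus Nrf2-/- non-tumor (squares) and Nrf2-/- tumor minus Nrf2-/- non-tumor (triangles), with 1 pool per group. The circles and squares share the tumor array and the squares and triangles share the Nrf2-/- non-tumor array; the platelet list has its circle at -2.04, its square at -0.41 and its triangle at -1.57.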

How the data were processed

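RNA pooled from 8 mice per group was labelled with Cy3 and hybridised to 4 Agilent whole-mouse arrays (design 014868, annotated on mm9), read with Agilent Feature Extraction 10.7.3.1, per the file headers and the labels' protocols. The deposited intensity is the authors' background-subtracted and detrended processed signal; the headers and labels record no scaling between arrays. The deposited value table, also intensity on a linear scale, equalled that signal within 0.497%; its column medians were 79.2, 47.2, 70.0 and 50.1 for Nrf2+/+ non-tumor, Nrf2+/+ tumor, Nrf2-/- non-tumor and Nrf2-/- tumor. The 75th percentiles were 759.9, 555.1, 742.0 and 584.1 in that order, between 54.2% and 63.5% of spots were well above background and none was saturated. The number of arrays limits the precision.

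From these files log2 signal minus each array's 75th percentile was computed, replicate spots were averaged, 4 probes flagged as non-uniform were dropped, and a gene was represented by its probe with the highest mean level. Symbols came from RefSeq (GRCm38.p6) by accession or from the file: 26686 probes had one and 14484 did not. A fold of "at least" sets the bright array's level against the dimmest level that the other array measured well above background, or the gene's own level there if higher. The 63 lists, their members and all tests were chosen with earlier results of these data known. The genes named were the 30 largest differences each way, the 15 largest bounds each way, and list members with the largest differences or that define a list. Promoters (250 bases before to 50 after the start) came from RefSeq, the first entry per gene. Alternatives were 8: median, quantile and spike-in scaling (6 control probes of signal over 500), normexp (offset 50, on the median foreground and background signals), the value table, no filter, both arrays above background, and the mean of all probes. Python 3.11.15, numpy 2.4.6, pandas 2.3.3, limma 3.58.1 in R 4.3.3 and matplotlib 3.10.9 were used; the difference calculation was tested on simulated data.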

Additional observations from a re-analysis of the deposited data

Results flagged for a closer look

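By their signals, Cxcl5 and Smad9 stood more than 2-fold up in Nrf2+/+ tumor, relative to non-tumor lung of that genotype. In Nrf2-/- tumor both read more than 2-fold down against Nrf2-/- non-tumor lung, but for Smad9 that value lay near background. The difference between the genotypes was not tested, since each group is 1 pool. Cxcl5 differed by 2.85 in Nrf2+/+ and by -1.18 in Nrf2-/- mice, with relative signals of 0.0680, 0.491, 0.278 and 0.123 in Nrf2+/+ non-tumor, Nrf2+/+ tumor, Nrf2-/- non-tumor and Nrf2-/- tumor. Smad9 differed by 2.82 and -1.66, but it was dim throughout, with 0.0330, 0.234, 0.0363 and 0.0115 in the same order, and was not well above background in the Nrf2-/- tumor. Its Nrf2-/- non-tumor level lay under the dimmest well-above-background level of the Nrf2-/- tumor array (0.0503). A decrease of Smad9 in Nrf2-/- mice therefore cannot be stated.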

How the results depend on the processing

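No paired analysis was possible because each group is 1 array and the arrays share no replicate number. Leaving out a replicate was not possible for the same reason. The 8 alternatives were run on each count. Median scaling gave 2633 genes at least 2-fold higher (1608 in the main setting). Normexp gave 1172 at least 2-fold lower (3052), 60 higher by 8-fold (212) and 2 lower by 8-fold (127). Genes well above background on both arrays gave 1792 at least 2-fold lower, 76 higher by 8-fold and 8 lower by 8-fold. The other counts stayed within 1.5 times. Of 63 list medians none past 2-fold changed sign. In 8 dim genes that were past 2-fold lower the difference crossed 0 with normexp (the cause was not tested): F2rl2 (0.08), Fbln5 (0.18), Fcer1a (0.07), Gli1 (0.05), Il5ra (0.05), Lamc3 (0.20), Nkx2-5 (0.09) and Serpinb2 (0.10). Low signal limits genes under about 0.0416 of the 75th percentile in tumor and 0.0287 in non-tumor lung, the dimmest levels well above background.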
